A study of Mus musculus with 16 samples.

Results

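The livers described here are labelled Cre, the group that the series text writes as LJ1J27a, and are set against livers labelled GFP, written LJ1J2control. Libraries were chosen by their titles alone, which gave 5 Cre and 5 GFP libraries of the 16 in the series. The other 6, labelled Flpo and written LJ1J27b, enter only where their level places a Cre value. All come from livers of C57/Bl6J mice kept on a high-fat diet, and all carry the conditional genotype J1 J2 lf/lf, so the GFP controls hold the same alleles as the Cre livers. The series text calls the change hepatocyte-specific. The labels give neither the age and sex of the mice nor how GFP, Cre or Flpo was delivered. PolyA-enriched RNA was read in pairs of 150 bases.

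JNK1 and JNK2, encoded by Mapk8 and Mapk9, are stress-activated protein kinases that phosphorylate transcription factors such as c-Jun. Each transcript holds either exon 7a or exon 7b, which encode alternative stretches of the kinase domain and can alter how strongly a substrate is bound. In hepatocytes these kinases are known for a role in insulin resistance and fat accumulation during high-fat feeding. The comparison asks which liver transcripts differ when hepatocytes are of the 7a kind. A count summed over a gene does not show which exon was used, so the isoform named in the label was not checked.

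Total counts were 28314911 to 31249837 in GFP and 27929393 to 33720727 in Cre, with 17067 to 17794 and 17199 to 17837 genes detected. Mitochondrial transcripts took 4.48% to 5.42% of counts in GFP and 3.73% to 5.47% in Cre. Whether every library is from its own mouse is not stated in the labels, and p-values reflect library-to-library spread only. Library numbers run in blocks by group, and a batch of animals or harvest cannot be told apart from the group. The first principal component of the 500 most variable genes held 37.2% of the variance and separated the groups, with GFP between -26.2 and -16.9 and Cre between 11.7 and 25.3. Cre 4 stood apart from the other Cre libraries, which began at 21.7. A score over 13 clock genes, the mean z value with the sign of 8 genes such as Dbp reversed and that of 5 such as Arntl kept, was -0.38 to 0.31 in GFP and 0.83 to 1.16 in Cre 1, 2, 3 and 5. Cre 4 scored -0.19, within the GFP range, and was the Cre library nearest to GFP for 184 of the 552 genes higher in Cre and 310 of the 776 lower.

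**Figure D1:**
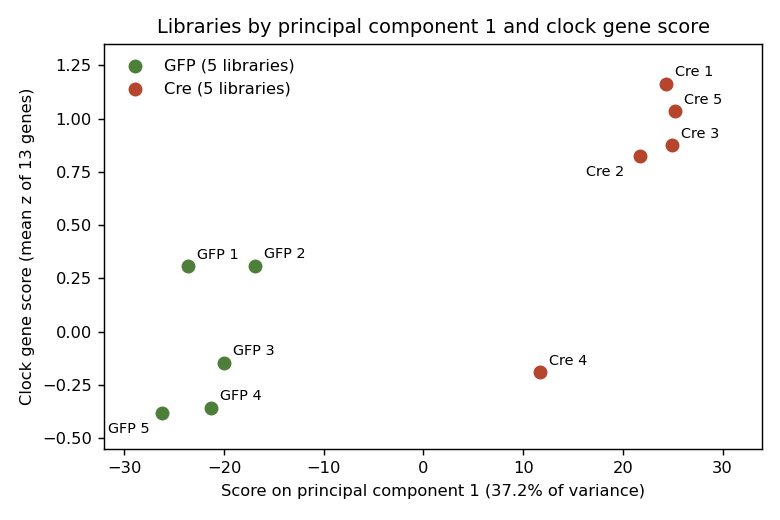
Score of each library on the first principal component (x axis, 37.2% of the variance of the 500 most variable genes, no unit) against its clock gene score (y axis, mean z value over 13 genes). Green points are the 5 GFP and red points the 5 Cre libraries. Cre 4, at 11.7 and -0.19, lies apart from the other Cre libraries on both axes.

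Of 13905 genes tested, 1328 differed between Cre and GFP, which is 9.55%. A gene is called changed here when edgeR's quasi-likelihood test gives it a Benjamini-Hochberg adjusted p under 0.05, and 552 genes were higher in Cre (3.97% of genes tested) and 776 lower (5.58%). Of these, 440 changed at least 2-fold (3.16% of genes tested). Changes of at least 4-fold were seen in 69 higher and 84 lower genes, and of at least 8-fold in 31 and 27. The 5 libraries of each group did not overlap for 1140 genes (8.2%), with Cre above in 3.56% and below in 4.64% of genes tested, and 357 of the higher and 509 of the lower calls were among them. The higher genes held a summed mean abundance of 71426 CPM, the count scaled to a fixed library total, in GFP and 155896 in Cre, and the lower genes 71449 and 45761. Calls were more frequent among abundant genes, from 3.82% of those under 1 CPM to 24.2% of those at or above 1000 CPM. With libraries scaled to their totals alone the median change over all genes was -0.14 on the log2 scale in place of 0.00, and 300 genes were higher and 1656 lower, so the split between directions depends on the scaling. Without Cre 4 the counts were 615 higher and 847 lower. When the clock score entered the fit as a covariate 174 genes were called, 170 of them among the 1328, and none of the 1328 changed sign. Because the score itself differed between the groups, a difference in clock phase and a difference between groups cannot be told apart for genes that lose their call in that fit. A kept call does not fully separate them either, since among Cre libraries only Cre 4 scored within the GFP range. Cre livers also differed from Flpo livers, in 1906 genes (13.7%, 870 higher or 6.26% and 1036 lower or 7.45%), while Flpo and GFP livers differed in 4 (0.0288%), and these comparisons share libraries with the one described here.

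**Figure D2:**
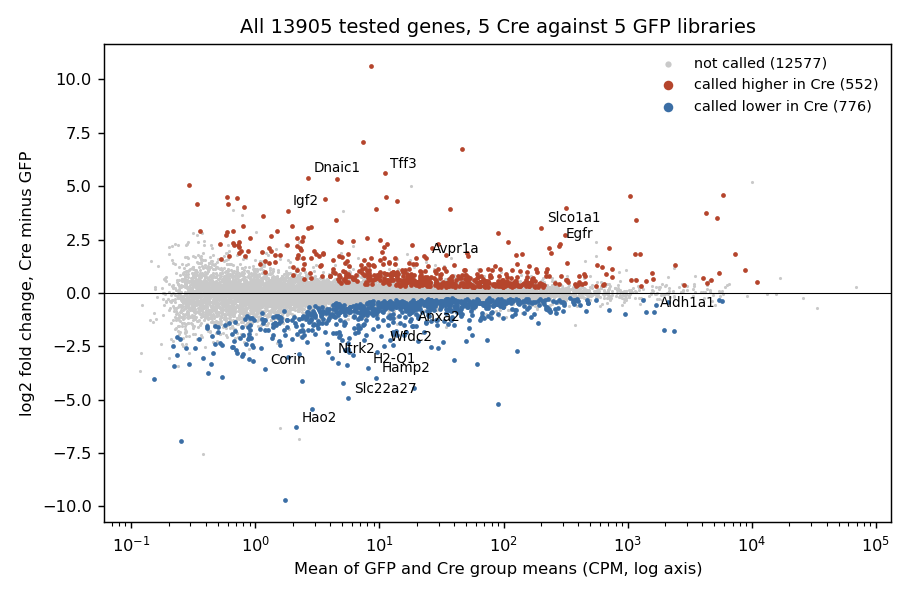
Log2 fold change of Cre minus GFP (y axis) against the mean of the group means in CPM (x axis, log scale) for the 13905 genes tested. Red points are the 552 genes called higher in Cre, blue points the 776 called lower and grey points the rest, and 15 genes of the text are named, among them Egfr at 2.30 and Slc22a27 at -4.93.

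Genes of cell surface signalling moved in both directions, with receptors of hormones and growth factors among the firmest calls. Egfr, which encodes the epidermal growth factor receptor and is abundant in hepatocytes, rose 4.91-fold. Its abundance was 70.4, 112, 117, 117 and 67.1 CPM in GFP 1 to 5 and 597, 453, 577, 255 and 491 CPM in Cre 1 to 5. Cre 4 had the lowest level in Cre and still lay above every GFP library, and the Flpo libraries ran from 95.4 to 166 CPM. The log2 fold change was 2.30 (SE 0.23, adjusted p = 1.89e-05). Its relative Erbb4, a receptor for neuregulins, went the other way, from 4.41, 3.68, 2.68, 2.70 and 4.44 CPM in GFP to 0.465, 1.11, 1.31, 1.95 and 0.314 CPM in Cre. The groups did not overlap, and the fall was 1.78 (SE 0.40, adjusted p = 0.0102) on the log2 scale. Of 15 EGF family ligands and receptors tested, these and Lrig2, a membrane protein that binds such receptors, were called, 2 higher and 1 lower. That is 20% against 9.55% of all genes, and with library totals alone 1 was higher and 3 lower. Lrig2 (log2 fold change 0.53, adjusted p = 0.044) lost its call without GFP 2, 3, 4 or 5, Cre 3 or 5 or Flpo 6, at adjusted p up to 0.128. Egfr lies on chromosome 11 from 16752203 to 16918158 and Erbb4 on chromosome 1 from 68032186 to 69108059 in GRCm38.

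Among 78 orphan, adhesion and other G protein-coupled receptors 5 rose and 4 fell, which is 11.5% against 9.55% of all genes. Without Cre 4 the count was 3 and 4, and with library totals alone 3 and 6. Avpr1a, the vasopressin receptor that couples to calcium release in hepatocytes, stood at 10.5, 15.9, 12.3, 11.7 and 8.10 CPM in GFP and 37.4, 41.9, 37.5, 34.7 and 28.8 CPM in Cre. All Cre libraries were above all GFP libraries, a 3.08-fold rise (log2 fold change 1.62, SE 0.21, adjusted p = 0.00011). Adora1, a receptor for adenosine that inhibits adenylate cyclase, fell from 45.3 ± 4.87 to 23.6 ± 6.35 CPM (SD, n = 5 libraries a group), and Gpr155, a lysosomal cholesterol sensor, from 23.1 ± 3.93 to 11.6 ± 1.66 CPM. Gprc5b, an orphan receptor, fell from 9.05 ± 4.95 to 1.44 ± 0.997 CPM, with GFP 3 and GFP 5 far below the other controls and still above every Cre library. None of these 4 overlapped between the groups. Avpr1a, Gpr155 and Gprc5b were also called with the clock score as a covariate, and Adora1 was not.

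Ntrk2, the receptor of brain-derived neurotrophic factor, fell 8.40-fold. Its level was 6.97, 8.77, 6.96, 4.95 and 9.43 CPM in GFP and 2.86, 0.180, 0.373, 0.511 and 0.471 CPM in Cre, and Cre 1 stood far above the other Cre libraries but below every GFP library. Corin, a membrane protease that processes natriuretic peptides, was at 2.76, 2.25, 1.95, 1.92 and 2.11 CPM in GFP and 0.0715, 0.108, 0.186, 0.12 and 0.432 CPM in Cre. Every Cre library was under every GFP library, and the log2 fold change was -3.58 (SE 0.38, adjusted p = 1.89e-05). In Flpo livers Corin ran from 1.47 to 3.23 CPM. Lifr, the receptor of leukaemia inhibitory factor, rose from 72.9 ± 13.4 to 137 ± 37.8 CPM. Socs2 and Socs3, inhibitors that cytokine and growth hormone signals induce, rose from 6.39 ± 2.02 to 29.9 ± 17.1 and from 4.73 ± 1.27 to 10.6 ± 5.07 CPM, the only 2 of 8 genes of their family that were called. In both, Cre 1 was the highest library, at 56.8 CPM for Socs2 and 19.6 CPM for Socs3, and no Cre library overlapped with GFP. Egfr, Ntrk2 and Corin kept their calls with the clock covariate, whereas Erbb4, Lifr, Socs2 and Socs3 did not.

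**Figure D3:**
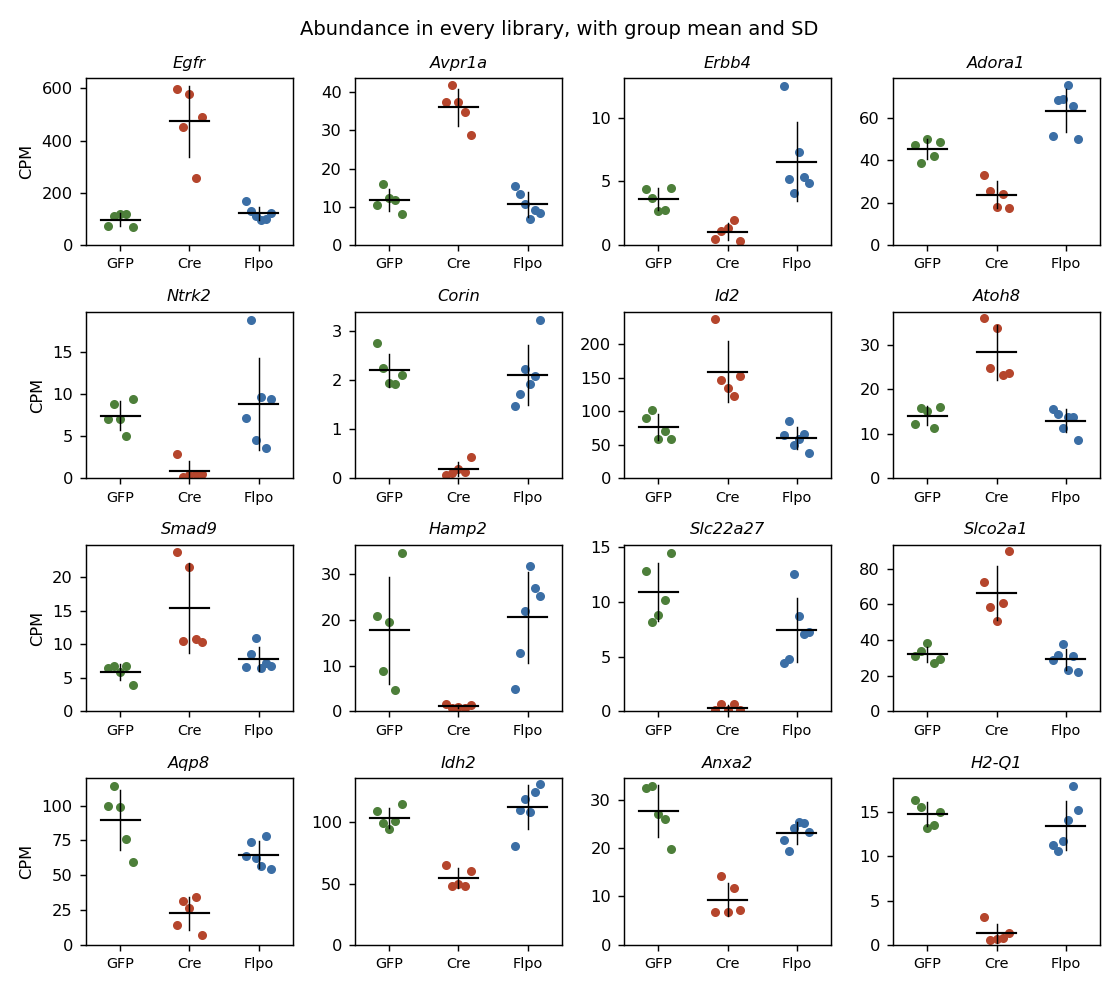
Abundance in CPM (y axis, from 0) of 16 genes in each library of the GFP (green, 5), Cre (red, 5) and Flpo (blue, 6) groups. Horizontal lines are group means and vertical lines 1 SD to either side, drawn no lower than 0. Cre libraries of Egfr lie above 254 CPM against at most 117 CPM in GFP, and those of Slc22a27 lie under 0.67 CPM against at least 8.19 CPM in GFP.

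Inhibitors of basic helix-loop-helix transcription factors rose together in Cre livers. The Id proteins lack a DNA-binding region, hold their partners off DNA and are classic targets of bone morphogenetic protein (BMP) signals, which act through SMAD proteins. Id1 was at 5.83, 5.08, 7.38, 3.62 and 4.41 CPM in GFP and 35.5, 14, 10.6, 10.2 and 11.2 CPM in Cre. Id2 was at 90, 102, 59.0, 70.1 and 59.0 CPM in GFP and 238, 146, 135, 122.9 and 152 CPM in Cre. Id3 was at 24.1, 22.1, 31.5, 21 and 16.6 CPM in GFP and 110.3, 45.5, 53.9, 41.4 and 36.1 CPM in Cre. Cre 1 was the highest library for all of them, and the groups did not overlap for any. The rises were 1.63 (SE 0.34), 1.06 (SE 0.22) and 1.32 (SE 0.32) on the log2 scale, at adjusted p of 0.00564, 0.00598 and 0.0174. Atoh8, a helix-loop-helix factor of the same signal, rose from 14.1 ± 2.21 to 28.4 ± 6.15 CPM, and Tfe3, a regulator of lysosome genes, by 0.45 on the log2 scale. These were the 5 of 39 helix-loop-helix and Id genes called, with 0 lower, which is 12.8% against 9.55% of all genes. Without Cre 4 the count was 6 higher and 1 lower. With library totals alone it was 4 higher and 2 lower and the family's median log2 fold change went from 0.13 to -0.01.

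Of 51 genes of the transforming growth factor, activin and BMP family, 4 rose and 2 fell, which is 11.8% against 9.55% of all genes. Without Cre 4 the count was 5 and 1. Smad9, one of the SMAD proteins that BMP receptors activate, was at 6.46, 6.72, 5.81, 6.71 and 3.92 CPM in GFP and 23.7, 10.5, 21.6, 10.7 and 10.3 CPM in Cre. Cre 1 and Cre 3 stood well above the other Cre libraries, and none overlapped with GFP (log2 fold change 1.37, SE 0.25, adjusted p = 0.00245). Smad7, which blocks receptor signals of the family, rose by 0.95 on the log2 scale (adjusted p = 0.0255), with overlap between the groups. Its call was lost without GFP 1, 2 or 5 or Cre 1 (adjusted p = 0.0609, 0.0528, 0.0506 and 0.0655). Inhbc, an activin subunit made by hepatocytes, rose from 66.0 ± 12.8 to 116 ± 34.6 CPM, whereas Gdf15, a stress hormone that curbs appetite, fell from 17.8 ± 5.36 to 7.91 ± 2.88 CPM. The Gdf15 call was lost without GFP 4 (adjusted p = 0.0549). With library totals alone 3 of the family were higher and 3 lower, and its median went from 0.08 to -0.06. Of the helix-loop-helix genes and these family members named, Inhbc alone was called with the clock covariate.

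The iron hormone genes, whose main inducer in liver is BMP signalling, were not both called. Hamp2, a duplicate of the hepcidin gene that is present in mice, fell 15.7-fold, from 20.8, 8.90, 19.4, 4.72 and 34.6 CPM in GFP to 1.57, 0.862, 0.895, 0.812 and 1.49 CPM in Cre. GFP spanned a wide range, yet its lowest library was above the highest of Cre (log2 fold change -3.98, SE 0.58, adjusted p = 0.00069). Hamp itself had a log2 fold change of 1.73 (SE 0.54, adjusted p = 0.0578) and was not called. Hamp and Hamp2 are close in sequence, so how reads were split between them may bear on both values. Across 35 genes of iron and heme handling 5 fell and 0 rose, which is 14.3% against 9.55% of all genes. Without Cre 4 the count was 5 and 1, and with library totals alone 8 and 0. Hamp2 was called with the clock covariate.

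A short GC-rich element, GGCGCC, is bound by the SMAD proteins of the BMP branch and was added to the motifs searched after the Id and Smad9 values were seen. It was looked for in promoter windows of RefSeq (GRCm38.p6, from 250 bases before to 50 after a gene's start, 1 window a gene). It reads the same on both strands. It was present in 111 of 406 windows of genes higher in Cre (27.3%), in 110 of 605 windows of genes lower (18.2%) and in 20.7% of 10601 windows of tested genes. Over all 27025 windows the share was 11.96%. Higher calls were more frequent among abundant genes, from 1.13% under 1 CPM to 17.2% at or above 1000 CPM. The shares were not compared at matched abundance or GC content. Both Id2 and Smad9 hold it once in the 250 bases before the start, whereas these letters are not in the windows of Id1, Id3 or Smad7. The upstream bases of Id2 (minus strand, chr12:25096093-25096342) and Smad9 (plus strand, chr3:54755332-54755581) are shown 5′ to 3′ with the element in capitals, as examples from the 2 families just described. A match of letters is a description and not a bound site.
Id2: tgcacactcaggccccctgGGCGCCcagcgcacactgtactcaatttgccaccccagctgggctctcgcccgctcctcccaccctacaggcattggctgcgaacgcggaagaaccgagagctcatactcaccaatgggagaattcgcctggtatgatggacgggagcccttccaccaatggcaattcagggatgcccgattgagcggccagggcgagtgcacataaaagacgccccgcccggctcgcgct
Smad9: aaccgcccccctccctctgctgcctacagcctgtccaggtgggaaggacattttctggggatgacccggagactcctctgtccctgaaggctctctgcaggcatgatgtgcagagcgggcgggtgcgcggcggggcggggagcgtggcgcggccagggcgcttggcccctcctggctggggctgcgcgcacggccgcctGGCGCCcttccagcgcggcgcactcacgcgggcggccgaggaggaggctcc
In Id2 the element begins 231 bases before the start and in Smad9 it begins 51 bases before it. The composite element TGATGCAA, which joins parts of a C/EBP and an ATF site, was found on either strand in 4 of the 406 windows of higher genes (0.99%), 0.83% of those of lower genes, 0.64% of those of tested genes and 0.93% of all windows. One of the 4 is Got1, the cytosolic aspartate aminotransferase, whose abundance was 107, 89.1, 77.2, 73.3 and 87.4 CPM in GFP and 725, 131, 199, 98.2 and 721 CPM in Cre. Cre 1 and Cre 5 stood far above the other Cre libraries and Cre 4 lay within the GFP range, so the groups overlapped (log2 fold change 2.11, SE 0.48, adjusted p = 0.0125). Its upstream bases (minus strand, chr19:43524606-43524855) carry the element on the other strand, 102 bases before the start, shown in capitals as it reads 5′ to 3′ on the gene's strand.
Got1: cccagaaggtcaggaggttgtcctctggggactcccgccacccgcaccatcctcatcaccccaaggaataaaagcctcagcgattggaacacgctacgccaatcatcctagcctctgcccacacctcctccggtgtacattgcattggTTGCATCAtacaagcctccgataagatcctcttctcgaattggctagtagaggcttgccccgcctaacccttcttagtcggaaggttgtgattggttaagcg
The other 12 motifs were AP-1 (TGANTCA), the cyclic AMP element (TGACGTCA), a PPAR element, the STAT palindrome (TTCNNNGAA), the E-box (CACGTG), the D-box (TTANGTAA) and the REV-ERB site (TAGGTCA). They also included the antioxidant element (TGACNNNGC), the CCAAT box (CCAAT), an HNF4 element (CAAAGTCCA), an HNF1 element and the interferon-stimulated element, the last of them also added after values were seen. All were searched on both strands, and matches of different motifs may overlap. In percentage points the widest gap to all tested genes among these 12 was that of the antioxidant element, at 16.5% of higher, 14.4% of lower and 14.6% of tested windows. The rarer D-box was in 8 of 406 higher (1.97%) and 16 of 605 lower windows (2.64%), against 1.48% of tested windows.

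Of 34 Wnt pathway genes 3 rose and 1 fell, which is 11.8% against 9.55% of all genes. Axin2, a feedback inhibitor that Wnt signals induce around the central vein, rose from 9.25, 9.31, 5.01, 8.24 and 7.65 CPM in GFP to 12.7, 15.3, 20, 10.3 and 15.1 CPM in Cre. All Cre libraries were above GFP, with Cre 4 the nearest (log2 fold change 0.89, SE 0.21, adjusted p = 0.0114). The coreceptor gene Lrp5 rose from 86.1 ± 13.3 to 122 ± 12.4 CPM, and the receptor gene Fzd4 fell from 32.5 ± 5.51 to 19.1 ± 5.58 CPM. The remaining rise, in Notum, a secreted Wnt inhibitor, was 0.33 on the log2 scale (adjusted p = 0.0292). Its call was lost without GFP 2, GFP 4, Cre 2 or Cre 3 (adjusted p = 0.0651, 0.058, 0.055 and 0.0707). Library totals alone gave 2 higher and 2 lower and moved the family's median from 0.04 to -0.10. None of these genes was called with the clock covariate.

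Several genes were close to silent in 1 group. Igf2, a growth factor that mouse liver shuts down after birth, was at 0.0951, 0.102, 0.452, 0.228 and 0.292 CPM in GFP and 1.32, 5.60, 4.77, 2.95 and 2.39 CPM in Cre. All Cre libraries were higher (log2 fold change 3.85, SE 0.58, adjusted p = 0.000497), and Flpo ran from 0.128 to 1.25 CPM. Dnaic1, a dynein chain of motile cilia, was at 0.0951, 0, 0.0348, 0.293 and 0.162 CPM in GFP and 6.80, 10.2, 3.47, 2.14 and 3.30 CPM in Cre, a rise of 5.40 on the log2 scale. Tff3, a trefoil peptide of mucus, was under 1 CPM in every GFP library and at 77.9, 6.93, 6.42, 5.74 and 11 CPM in Cre. Cre 1 was far above the other Cre libraries for Tff3, and these still lay above GFP. Gldn, a secreted organiser of nodes of Ranvier, ran from 2.20 to 19.2 CPM in Cre against at most 0.819 CPM in GFP, and Slc35f1, a solute carrier of uncertain substrate, from 0.451 to 2.90 CPM against at most 0.254 CPM. Igf2 and Dnaic1 were called with the clock covariate, and Tff3, Gldn and Slc35f1 were not.

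Losses of a similar size were seen in the other direction. Hao2, a peroxisomal hydroxyacid oxidase, was at 4.37, 0.785, 3.55, 2.87 and 9.59 CPM in GFP and 0, 0.0718, 0, 0.0602 and 0.118 CPM in Cre, where 2 libraries had 0. Its log2 fold change of -6.30 (SE 0.89, adjusted p = 0.00038) rests on counts near 0 in Cre, and limma-voom did not call it (adjusted p = 0.0511). Themis, a signalling protein best known from thymocytes, fell from 7.89, 5.66, 9.99, 9.84 and 16.6 CPM to 0.358, 1.22, 0.783, 2.23 and 0.0785 CPM. Osbpl5, an exchanger of sterols and phosphatidylserine at membrane contacts, fell from 8.37 ± 4.88 to 0.852 ± 0.445 CPM, and Kbtbd11, an adaptor of ubiquitin ligases, from 3.25 ± 0.645 to 0.395 ± 0.193 CPM. Chil1, a chitinase-like secreted protein of inflamed tissue, fell from 1.59 ± 1.01 to 0.184 ± 0.0565 CPM. None of these genes overlapped between Cre and GFP. Themis, Osbpl5 and Kbtbd11 kept their calls with the clock covariate, as did Hao2, and Chil1 did not.

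After Lgals1, Plin4 and Slc22a27, the next smallest adjusted p among lower genes was shared by 7 genes of varied function, 6 of which are described. Wfdc2, a secreted protease inhibitor, was at 19.7, 20.4, 19.2, 20.1 and 13.5 CPM in GFP and 3.47, 2.59, 1.75, 3.10 and 5.65 CPM in Cre. Ppl, periplakin, which links keratin filaments to desmosomes, was at 13.2, 11, 15.4, 10.5 and 12 CPM in GFP and 4.15, 3.88, 1.75, 2.56 and 3.45 CPM in Cre. Dhrs7, a short-chain dehydrogenase, ran from 38.4 to 52.0 CPM in GFP and was at 19.7, 17.6, 19.5, 23.2 and 13.9 CPM in Cre. In all of these the highest Cre library was under the lowest of GFP, by a wide margin for Wfdc2, where GFP 5 was the lowest control. Mgst3, a microsomal glutathione transferase, fell from 25.7 ± 1.25 to 7.29 ± 1.66 CPM, and Limd2, a small cytoskeletal adaptor, from 20 ± 5.32 to 5.54 ± 0.435 CPM. These and Lcn2, lipocalin-2, which binds bacterial iron carriers, had an adjusted p of 1.67e-05 with log2 fold changes from -2.49 to -1.32. All 6 remained called with the clock covariate and in each fit that left out 1 library. Wfdc2 lies on chromosome 2 from 164562413 to 164568510 and Mgst3 on chromosome 1 from 167371966 to 167393841.

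Enzymes that modify sugar and lipid chains were among the firm rises. Hs3st3b1 and Ndst2 modify heparan sulfate, the chain by which many growth factors are held at the cell surface. Hs3st3b1 was at 44.9, 43.7, 40.7, 41.5 and 44.3 CPM in GFP and 95.2, 83.3, 71.1, 70.9 and 73.3 CPM in Cre. Ndst2 was at 15, 15.2, 13.3, 15.5 and 13.4 CPM in GFP and 22.2, 21.9, 22.7, 20.7 and 22.4 CPM in Cre. The groups did not overlap, and GFP libraries lay close together for both (log2 fold changes 0.87, SE 0.09, and 0.60, SE 0.10; adjusted p = 2.00e-05 and 0.000849). Hs6st1, which adds sulfate at another position of the same chain, fell from 128 ± 11.4 to 99.2 ± 8.23 CPM. Over 99 glycosyl and sulfate transferases 4 rose and 3 fell, under the 9.55% of all genes, and with library totals alone 3 rose and 13 fell. Elovl2, an elongase of polyunsaturated fatty acids, rose from 359.6, 388, 239.5, 347 and 276 CPM to 769.9, 756, 608, 1055 and 854 CPM. Cre 3 was its lowest Cre library and exceeded every GFP library. Atrn, attractin, rose from 59.1 ± 5.51 to 101 ± 5.90 CPM, and Ctcflos, a noncoding transcript opposite Ctcfl, from 6.36 ± 0.699 to 17.5 ± 3.90 CPM. Whether the counting used strand is not stated, so reads of Ctcflos and its partner may not be told apart. Hs3st3b1, Ndst2, Elovl2, Atrn and Ctcflos kept their calls with the clock covariate, and Hs6st1 did not.

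Of 18 hydroxysteroid dehydrogenases and steroid reductases 4 rose and 0 fell, which is 22.2% against 9.55% of all genes. With library totals alone 3 rose and 1 fell, and the family's median moved from 0.02 to -0.12. Srd5a1, the reductase that converts testosterone to dihydrotestosterone, was at 34.9, 33.5, 32.3, 31.4 and 23.9 CPM in GFP and 61.1, 60.2, 80.0, 63.6 and 60.5 CPM in Cre. Cre 3 stood above the rest of its group and the groups were far apart (log2 fold change 1.06, SE 0.14, adjusted p = 0.000128). Hsd3b5, a ketosteroid reductase typical of male mouse liver, was at 0.190, 1.5, 1.60, 0.912 and 0.0972 CPM in GFP and 73.0, 112, 178, 84.6 and 9.42 CPM in Cre, with Cre 5 the lowest of its group. It has near-identical relatives, so the split of reads among them is uncertain. The other rises, in Hsd17b7 (1.13) and Hsdl2 (0.59 on the log2 scale), were lost without Cre 5 (adjusted p = 0.0641 and 0.0562) and without GFP 3 (0.0574 and 0.0548). Hsd17b7 was also lost without GFP 4 (0.0506) and Hsdl2 without GFP 5 (0.0513). Srd5a1 was called with the clock covariate, and the others were not. Of 13 aldo-keto reductases, a family that also holds steroid-reducing enzymes, 3 fell and 0 rose. That is 23.1% against 9.55% of all genes, and with library totals alone 6 fell and 0 rose.

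A list of 29 short-chain dehydrogenase and retinoid genes was matched by symbol, and not every member is known to act on vitamin A. In this list 9 fell and 0 rose (31.0% against 9.55% of all genes), or 8 and 1 without Cre 4. Dhrs7, Dhrs7b and Bco2 were among the 9. Aldh1a7 and Aldh1a1, aldehyde dehydrogenases of which Aldh1a1 makes retinoic acid, are neighbours on chromosome 19. Aldh1a7 was at 191, 200.5, 188, 207 and 194 CPM in GFP and 101, 119, 109.7, 153 and 129 CPM in Cre. Aldh1a1 was at 1883, 1809.6, 1889, 2116 and 2909 CPM in GFP and 610.4, 1346, 1260.2, 1716 and 779.7 CPM in Cre. The groups overlapped for neither, with Cre 4 nearest to GFP in both. Reads may have been split between these similar genes. Rdh16, a retinol dehydrogenase, fell from 160.2 ± 18.4 to 93.3 ± 23.1 CPM. Of these, Aldh1a7 was called with the clock covariate. The list also holds Lrat, a retinyl ester synthase that marks stellate cells, and summed stellate and fibroblast markers were lower in Cre, at 201 to 349 CPM against 310 to 403 CPM in GFP. In bulk RNA fewer cells of a type and less RNA per cell cannot be told apart.

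Glutathione transferases, which conjugate electrophiles for export, were lower, with 9 of 22 fallen and 1 risen (45.5% called against 9.55% of all genes). Gstt3 fell from 82.4 ± 21.6 to 17.3 ± 5.63 CPM (log2 fold change -2.25, SE 0.24, adjusted p = 2.45e-05), and Gsta3 from 1259 ± 288 to 625.4 ± 169 CPM. The one that rose was Gstp1. Members of this family are similar in sequence, which leaves the split of reads between them uncertain. Of 9 carbonic anhydrases, which interconvert carbon dioxide and bicarbonate, 4 fell (44.4% against 9.55% of all genes), or 3 without Cre 4. Car14, a membrane form, was at 44.3, 38.7, 48.8, 33.1 and 42.2 CPM in GFP and 17.8, 14.7, 17.5, 21.7 and 12.9 CPM in Cre. Car5a, the mitochondrial form that supplies bicarbonate to gluconeogenesis and the urea cycle, was at 79.2, 70.9, 75.4, 62.2 and 87.3 CPM in GFP and 37.0, 33.9, 37.0, 52.5 and 24.3 CPM in Cre. The groups did not overlap for either, and both were called with the clock covariate, as was Gstt3. Car2 and Car3, which lie next to each other on chromosome 3, fell by 0.77 and 1.73 on the log2 scale. Car3 (adjusted p = 0.0259) lost its call without GFP 5 or Cre 1 (0.0637 and 0.0578). Car2 (adjusted p = 0.0441) lost it without GFP 1, 2 or 4, Cre 1, 2, 3 or 4 or Flpo 2, 3, 4 or 6, at adjusted p up to 0.112.

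**Figure D4:**
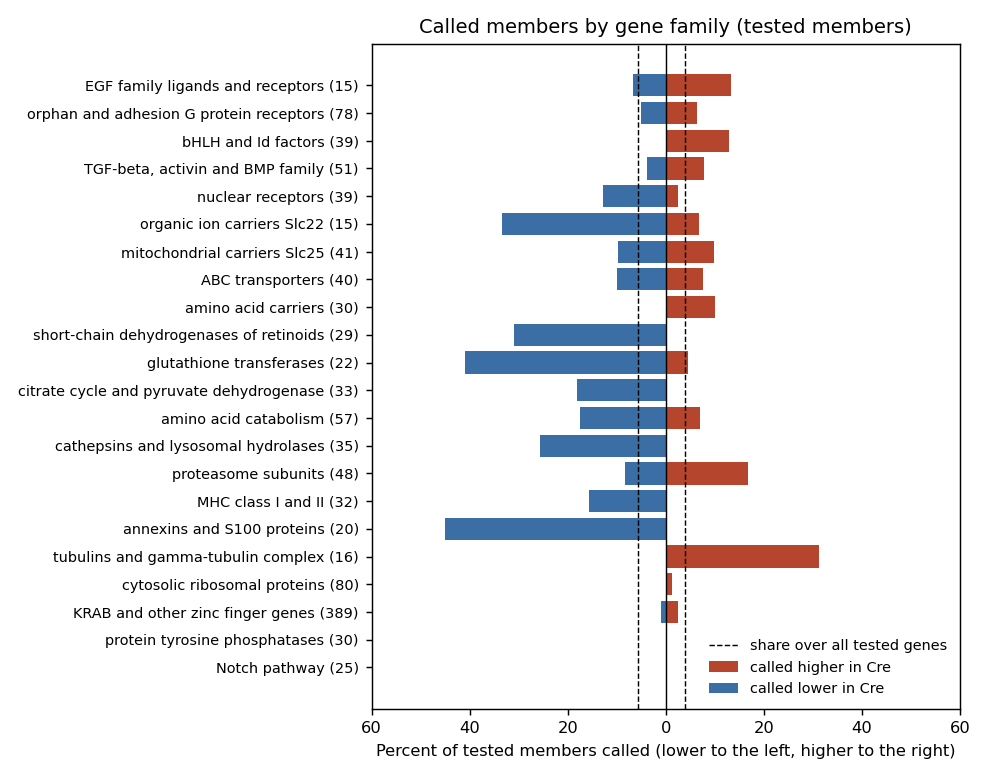
Share of tested members called in Cre against GFP (x axis, percent) in 22 gene families, with the number of members tested in brackets. Red bars to the right are members called higher in Cre and blue bars to the left members called lower, and dashed lines mark the shares over all genes, 3.97% and 5.58%. Bars to the left pass the line for glutathione transferases (9 of 22), annexins and S100 proteins (9 of 20) and short-chain dehydrogenase and retinoid genes (9 of 29). There is no bar for protein tyrosine phosphatases or the Notch pathway.

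Carriers of organic ions fell more often than they rose. The Slc22 proteins move organic cations and anions such as carnitine and drugs across the plasma membrane. Of 15 tested 5 fell and 1 rose (40% against 9.55% of all genes), or 5 and 0 without Cre 4. Slc22a27 was at 12.8, 8.19, 8.80, 10.2 and 14.5 CPM in GFP and 0.143, 0.646, 0.112, 0.662 and 0.157 CPM in Cre. Slc22a29 was at 6.15, 3.28, 5.39, 3.78 and 9.40 CPM in GFP and 0, 0.144, 0, 0.391 and 0.0392 CPM in Cre. Neither overlapped, and the log2 fold changes were -4.93 (SE 0.43, adjusted p = 5.37e-06) and -5.46 (SE 0.64, adjusted p = 5.86e-05), the latter with 2 Cre libraries at 0. Slc22a15 fell from 21.9 ± 5.35 to 10.1 ± 2.36 CPM and Slc22a3, a cation carrier, from 9.53 ± 1.54 to 3.02 ± 1.84 CPM. Slc22a27 lies on chromosome 19 from 7864388 to 7966027 and Slc22a29 on chromosome 19 from 8160165 to 8218900, in a cluster of similar genes between which reads may be split. Of 6 Slco transporters 2 rose and 1 fell (50% against 9.55% of all genes), or 2 and 2 without Cre 4 and 2 and 3 with library totals alone. Slco2a1, a prostaglandin carrier, was at 30.9, 33.8, 38.2, 27.4 and 29.4 CPM in GFP and 72.2, 58.3, 50.5, 60.7 and 89.8 CPM in Cre, with no overlap. Slco1a1 rose from 43.2 ± 24.1 to 361 ± 96.6 CPM and its neighbour Slco1a4 fell from 52.9 ± 18.9 to 22 ± 8.83 CPM, a call lost without GFP 1 (adjusted p = 0.0521).

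Aquaporins move water, and other carriers move sugars and bile lipids across the hepatocyte membrane. Aqp8, a water channel of hepatocyte membranes, was at 99.3, 114, 98.7, 76.0 and 59.1 CPM in GFP and 13.9, 31.6, 26.3, 34.6 and 7.22 CPM in Cre. Cre 1 and Cre 5 were lowest, and no library overlapped (log2 fold change -1.97, SE 0.32, adjusted p = 0.00128). Slc2a2, the main glucose transporter of hepatocytes, was at 316, 293, 292, 249.8 and 294 CPM in GFP and 107, 169, 149, 277 and 135 CPM in Cre, with Cre 4 inside the GFP range. Slc2a9, a urate carrier, fell from 39.9 ± 3.39 to 27.3 ± 5.65 CPM and Slc5a6, which takes up biotin and pantothenate, from 11.4 ± 2.12 to 6.21 ± 0.897 CPM. Thus 3 of 9 sugar carrier family genes fell, which is 33.3% against 9.55% of all genes. Abcb4, which moves phosphatidylcholine into bile, rose from 331 ± 22.7 to 475 ± 72.7 CPM. Of 40 ABC transporters 3 rose and 4 fell, which is 17.5% against 9.55% of all genes. With library totals alone 2 rose and 5 fell, and the median moved from 0.07 to -0.06. Slc22a27, Slc22a29, Slc22a15, Slco2a1 and Aqp8 were also called with the clock covariate.

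Of 33 genes of the citrate cycle and its entry through pyruvate dehydrogenase, 6 fell and 0 rose, with a median of -0.09. That is 18.2% against 9.55% of all genes, and with library totals alone 12 fell and 0 rose. Idh2, the isocitrate dehydrogenase that makes NADPH, was at 109, 99.6, 94.4, 101 and 115 CPM in GFP and 65.4, 48, 49.9, 47.8 and 60.4 CPM in Cre. The highest Cre library, Cre 1, was well under the lowest of GFP (log2 fold change -0.94, SE 0.12, adjusted p = 0.000138). Suclg2, a subunit of the GTP-forming succinyl-CoA ligase, fell from 305 ± 22.4 to 225 ± 22.2 CPM. Pdha1, a subunit of pyruvate dehydrogenase, fell from 133 ± 7.08 to 104 ± 9.35 CPM, and Pdk2, the kinase that inhibits this enzyme, from 113 ± 6.98 to 74.2 ± 13.4 CPM. Slc25a10, which exchanges dicarboxylates for phosphate, fell from 388, 378, 365, 383 and 393 CPM to 198, 219, 211, 275 and 173 CPM, with every Cre library lower. Slc25a22, a glutamate carrier, was at 168, 186, 177, 194 and 156 CPM in GFP and 436, 354, 308, 283 and 965 CPM in Cre, all Cre libraries higher and Cre 5 far above the rest. Slc25a33, a pyrimidine nucleotide carrier, rose from 19.7 ± 3.36 to 37.2 ± 8.99 CPM. Of 41 carriers of this family 4 rose and 4 fell, which is 19.5% against 9.55% of all genes. With library totals alone 2 rose and 7 fell, and the median moved from 0.04 to -0.10.

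Amino acid breakdown had 10 of 57 genes lower and 4 higher (24.6% against 9.55% of all genes), or 10 and 7 without Cre 4. With library totals alone 21 were lower and 3 higher, and the median went from -0.05 to -0.19. Hibch and Mccc2 act in the breakdown of branched-chain amino acids. Hibch was at 74.2, 68.2, 70.7, 60.5 and 71.3 CPM in GFP and 55, 50, 54.3, 53.8 and 52.3 CPM in Cre. Mccc2 was at 65.4, 67.3, 75.7, 53.7 and 62.7 CPM in GFP and 47.1, 47.7, 52.2, 45.8 and 48.7 CPM in Cre. The Cre libraries lay in a narrow band under all GFP libraries for both, with log2 fold changes of -0.38 (SE 0.07) and -0.43 (SE 0.08). Agxt2, a mitochondrial aminotransferase that degrades methylated arginines, fell from 155 ± 15.4 to 111 ± 12.6 CPM. Cbs, which makes cystathionine from homocysteine, rose from 313 ± 58.7 to 573 ± 183 CPM, with Cre 4 under GFP 3, the highest control. Tdo2, the first enzyme of tryptophan breakdown in liver, rose from 1176, 1009, 1265, 1361 and 1469 CPM to 1889.5, 1639, 1876, 1965 and 2391 CPM, with no overlap. Ido2, another tryptophan dioxygenase, fell from 68.2 ± 15.1 to 45.1 ± 7.56 CPM. Idh2, Slc25a10, Hibch and Tdo2 kept their calls with the clock covariate, and the other genes of mitochondria and amino acids named here did not.

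Called enzymes that make and break phosphatidylcholine moved in both directions. Gpcpd1 and Pnpla7 act in its breakdown, by cleaving glycerophosphocholine and lysophosphatidylcholine. Gpcpd1 was at 47.7, 52.8, 44.5, 38.9 and 64.1 CPM in GFP and 120.3, 82.5, 150.3, 86.8 and 157 CPM in Cre. Pnpla7 was at 79.2, 102, 112, 98.0 and 58.3 CPM in GFP and 167, 185, 157, 171 and 225 CPM in Cre. The groups were separate for both (log2 fold changes 1.27, SE 0.18, and 1.01, SE 0.16; adjusted p = 0.000322 and 0.000677). Chka, the choline kinase of the first step of synthesis, rose from 20.5 ± 4.46 to 46 ± 14.9 CPM. Pcyt1a, the enzyme of the rate-limiting step of synthesis, fell from 83.0 ± 13.3 to 56.9 ± 11.6 CPM, and GFP 3, at 59.9 CPM, lay among the Cre libraries. Chpt1, the enzyme of the last step, fell from 345 ± 27.8 to 261 ± 46.7 CPM (adjusted p = 0.0304), with overlap, and lost its call without GFP 1, 2, 4 or 5 or Cre 1 or 2, at adjusted p up to 0.0826. Of 37 phospholipid synthesis genes 2 rose and 2 fell, which is 10.8% against 9.55% of all genes, or 1 and 4 with library totals alone. Of 67 phospholipase genes 5 rose and 6 fell (16.4% against 9.55% of all genes), or 6 and 8 without Cre 4 and 4 and 11 with library totals alone. Gpcpd1 and Pnpla7 were called with the clock covariate, and Chka, Pcyt1a and Chpt1 were not.

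Levels in Flpo livers place several of these values. Egfr in Cre exceeded Flpo by 1.98 on the log2 scale (adjusted p = 2.67e-05), and Flpo minus GFP was 0.32 (adjusted p = 0.668). For Corin the difference from Flpo was -3.52 (adjusted p = 1.50e-05) and that of Flpo from GFP -0.06 (adjusted p = 0.962). For Slc22a27 these were -4.38 (adjusted p = 7.99e-06) and -0.55 (adjusted p = 0.594), and for Idh2 -1.05 (adjusted p = 2.67e-05) and 0.11 (adjusted p = 0.788). Cre livers thus differed from both other groups for these genes in the edgeR fit, in comparisons that share the Cre libraries.

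Among genes of the proteasome, which degrades proteins marked with ubiquitin, calls were lower for immune subunits and higher for some others. The standard peptidase genes Psmb5, Psmb6 and Psmb7 were not called (log2 fold changes 0.22, 0.15 and 0.23, adjusted p = 0.297, 0.524 and 0.137). Genes whose symbol begins with Psm numbered 48, among them assembly factors and Psmc3ip, which is not a subunit. Of these 8 rose and 4 fell (25% against 9.55% of all genes), or 9 and 2 without Cre 4. The 4 that fell were all among the 5 genes of the immunoproteasome and of its PA28 cap, which interferon induces and which shape peptides for presentation, with a median log2 fold change of -0.36. Of the other 43 genes 8 rose, 0 fell and 34 were above 0, with a median of 0.20. Psmb9, an immunoproteasome peptidase, was at 22.8, 27.5, 23.6, 21.2 and 22.4 CPM in GFP and 7.87, 17.8, 10.3, 14.1 and 13.9 CPM in Cre. Psmb10 was at 27, 34.6, 32.9, 27.7 and 37.3 CPM in GFP and 24.3, 22.9, 20.9, 11.3 and 9.97 CPM in Cre. Psmc6, a proteasome ATPase, was at 69.1, 66.8, 66.6, 69.0 and 69.1 CPM in GFP and 84.2, 76.8, 81.3, 86.4 and 84.6 CPM in Cre. Psmd12, a lid subunit, was at 64.5, 56.2, 64.3, 62.3 and 62.2 CPM in GFP and 79.1, 70.1, 72.6, 76.4 and 89.9 CPM in Cre. None of these overlapped between the groups, and all Cre libraries were on the same side. The rises were small, from 0.28 (Psmc6) to 0.47 (Psmd4) on the log2 scale, and with library totals alone the 48 genes gave 1 higher and 5 lower and their median went from 0.15 to 0.00. Psmd4 (adjusted p = 0.0418) lost its call without GFP 1, 2, 4 or 5 or Cre 2, 3 or 5, at adjusted p up to 0.0953. Psme1 and Psme2, the PA28 subunits, fell by 0.33 and 0.36 on the log2 scale. Both calls were lost without GFP 2, 3, 4 or 5 (adjusted p from 0.0535 to 0.0874 for Psme1 and from 0.0692 to 0.0927 for Psme2). They were also lost without Cre 4 (0.0568 and 0.0685) or Cre 5 (0.0692 and 0.0873). Psme1 was lost as well without Cre 1 (0.0719), and Psme2 without Cre 3 (0.0573) and without Flpo 1, 2, 3 or 5 (0.0506 to 0.0598). No proteasome gene was called with the clock covariate.

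**Figure D5:**
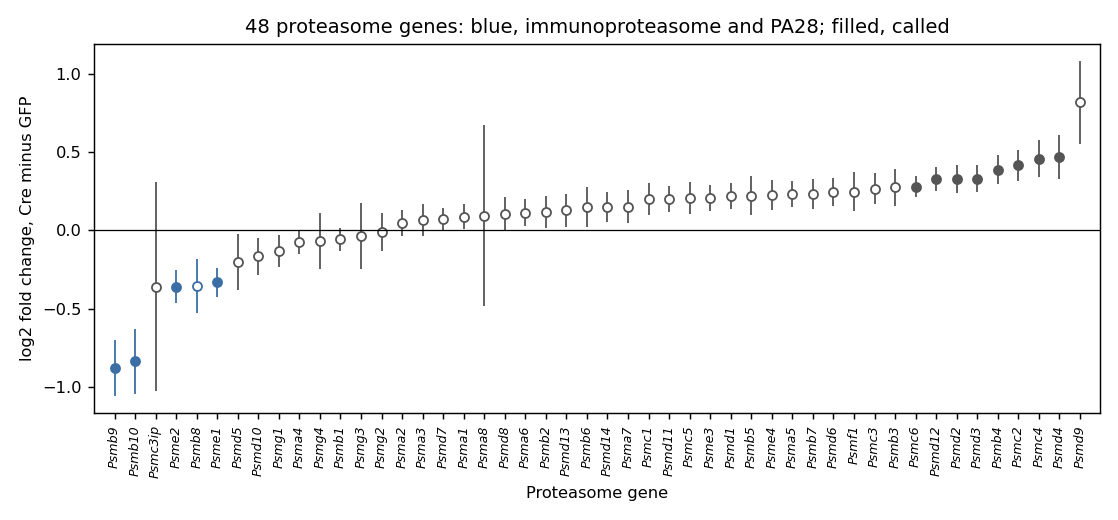
Log2 fold change of Cre minus GFP (y axis) for each of the 48 genes with a Psm symbol (x axis, sorted by value), with bars of 1 SE. Blue marks the 5 immunoproteasome and PA28 genes and grey the other 43, and filled points passed the adjusted p of 0.05. The 4 filled points under 0 are all blue and the 8 filled points above 0 are all grey.

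Called genes of antigen presentation were lower in Cre. Of 32 genes of the major histocompatibility complex and its loading factors 5 fell and 0 rose, which is 15.6% against 9.55% of all genes. In 6 the log2 fold change was above 0, with a median of -0.29 over the 32, and with library totals alone 10 fell. H2-Q1, a class I-like gene, was at 16.4, 15.6, 13.2, 13.6 and 15 CPM in GFP and 3.18, 0.539, 0.671, 0.782 and 1.29 CPM in Cre. Cre 1 was the highest of its group and remained far under GFP (log2 fold change -3.51, SE 0.35, adjusted p = 1.77e-05). H2-Q10, a secreted class I protein made by liver, was at 2532, 2541, 2257, 2470.5 and 2265 CPM in GFP and 1769, 1777, 1789, 1802 and 1836 CPM in Cre, and H2-Q4 fell from 41.6 ± 4.70 to 29.8 ± 5.64 CPM. H2-Q10 and H2-Q4 lost their calls without GFP 2 (adjusted p = 0.0586 and 0.0527) or GFP 4 (0.0526 and 0.0638), and H2-Q10 without GFP 1 (0.0579). The H2-Q genes are near-identical, so how reads were divided among them is uncertain. The other calls, H2-T22 and Tapbpl, were the least firm. H2-T22 (adjusted p = 0.0484) was lost without any single GFP or Flpo library and without Cre 1, 3 or 5, at adjusted p up to 0.116. Tapbpl (adjusted p = 0.0287) was lost without GFP 2, 4 or 5 or Cre 1, 4 or 5, at adjusted p up to 0.0833. Of 66 interferon-induced genes 2 rose and 1 fell (4.55% against 9.55% of all genes), or 2 and 3 with library totals alone. Of 13 macrophage markers none was called, with summed levels of 124 to 231 CPM in GFP and 125 to 192 CPM in Cre.

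Annexins bind membrane phospholipids in the presence of calcium. With their S100 partners 9 of 20 fell and 0 rose (45% against 9.55% of all genes), or 7 and 0 without Cre 4. Anxa5 was at 103, 107, 74.2, 93.1 and 74.7 CPM in GFP and 40.9, 43.2, 38.1, 42.1 and 50.7 CPM in Cre. Anxa2 was at 32.5, 33.0, 27.2, 26.1 and 19.8 CPM in GFP and 6.76, 14.2, 6.75, 11.8 and 7.22 CPM in Cre. Both were separate between the groups (log2 fold changes -1.07, SE 0.13, and -1.57, SE 0.20; adjusted p = 6.96e-05 and 0.00011). Among 35 cathepsins and lysosomal hydrolases 9 fell and 0 rose, which is 25.7% against 9.55% of all genes. Glb1, the lysosomal galactosidase, fell from 10.6 ± 0.578 to 6.61 ± 0.970 CPM, and Ctsb, cathepsin B, from 557 ± 38.2 to 403 ± 58.7 CPM. Anxa5 and Anxa2 were called with the clock covariate. Annexins are abundant in nonparenchymal cells and fat, and 5 of 14 stellate and fibroblast markers and 3 of 5 tested adipocyte markers were also lower. In other marker lists 1 of 12 for liver endothelium, 1 of 10 for lymphocytes and 1 of 7 for cholangiocytes were called higher. Of 5 erythroid markers 1 was called lower. None of 13 macrophage markers was called, with a median log2 fold change of -0.28. Summed endothelial markers were at 156 to 196 CPM in GFP and 189 to 243 CPM in Cre. Summed adipocyte markers were at 67.4 to 105 CPM in GFP and 22.8 to 303 CPM in Cre, the last in Cre 5, where Cidec alone was at 289 CPM. The adipocyte markers that fell were Pparg, Cidea and Cfd, whereas Adipoq, Lep, Retn and Plin1 did not pass the filter on low counts, and the part of other cell types in the annexin values was not tested.

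Tubulins are the subunits of microtubules. Of 16 genes of tubulins and the gamma-tubulin complex, 5 of them Tubgcp genes of that complex, 5 rose and 0 fell, or 4 and 0 with library totals alone. That is 31.25% against 9.55% of all genes in the main fit, and those that rose were all alpha and beta tubulins. Tubb2a was at 42.8, 50.9, 38.9, 47.6 and 29.7 CPM in GFP and 58.6, 107, 53.4, 66.5 and 153 CPM in Cre, with Cre 2 and Cre 5 the highest. Tuba4a rose from 76.8 ± 9.32 to 109 ± 12.1 CPM, Tubb4b from 79.3 ± 10.2 to 119.5 ± 23.7 CPM and Tubb5 from 27.4 ± 3.17 to 37.1 ± 3.42 CPM. Of these, Tubb4b alone overlapped between the groups. Tight junction genes had 4 of 20 higher and 2 lower (30% against 9.55% of all genes), or 3 and 3 without Cre 4. With library totals alone 3 were higher and 4 lower, and the median went from 0.18 to 0.03. Among the higher genes were Ocln, occludin, which rose from 8.75 ± 1.48 to 15.4 ± 3.20 CPM, and Cldn14, claudin-14, from 7.08 ± 0.299 to 11.8 ± 3.07 CPM. None of these tubulin and tight junction genes was called with the clock covariate.

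Nuclear receptors, transcription factors that respond to lipids and hormones, had 5 of 39 members lower and 1 higher, which is 15.4% against 9.55% of all genes. Without Cre 4 the count was 6 and 0, and with library totals alone 9 and 0. Pparg, the receptor of fat storage, was at 17.5, 18.3, 13.4, 24.1 and 18.9 CPM in GFP and 5.33, 8.73, 7.61, 7.73 and 6.67 CPM in Cre. The groups were separate (log2 fold change -1.35, SE 0.19, adjusted p = 0.000223), and Pparg was also called with the clock covariate.

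Some families had few called members. None of 30 protein tyrosine phosphatases, 25 Notch pathway genes or 24 TRP and calcium channel genes was called by edgeR's quasi-likelihood test, against 9.55% of all genes. Library totals alone called 2, 1 and 2 of them, all lower. Without Cre 4, cytosolic ribosomal proteins had 12 of 80 higher, and with it 1 of 80. With all libraries, mitochondrial ribosomal proteins had 2 of 78 called, or 12 with library totals alone, and nuclear receptor coregulators 1 of 51, or 3 of 51 without Cre 4. Zinc finger genes of the Zfp, Zscan, Zkscan and Zbtb kind had 14 of 389 called, or 3.60%, with 10 higher and 4 lower, or 6 and 10 with library totals alone. The short marker lists of cell types were not among these families. Markers of liver endothelium had 1 of 12 higher, those of cholangiocytes 1 of 7 and those of lymphocytes 1 of 10, against 3.97% of all genes. Hepatocyte markers, the defining genes of the tissue label, summed to 94482 to 119650 CPM in GFP and 111115 to 137903 CPM in Cre, and the summed pancreas markers were at most 14.02 CPM in any of these libraries.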

How the data were processed

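PolyA RNA of 16 liver libraries was sequenced in read pairs of 150 bases. Reads were trimmed with cutadapt and aligned to mm10 with STAR, per the submitters' processing notes, which give no versions. The deposited table holds an estimated count per gene, made by the authors with a program that the labels do not name, and 99.9996% of nonzero values were not whole (tolerance 1e-06). In the deposited TPM table by the authors, values of the 10835 genes compared, with counts above 20 in every library, equalled the counts scaled by a gene factor and a library factor, to within 1.07e-09 on the log2 scale. Whether counting used strand is not stated.

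Estimated counts were rounded. Genes passing filterByExpr (minimum count 10) were fitted over all 16 libraries with edgeR 4.0.16 (R 4.3.3), TMM factors and the quasi-likelihood test, Benjamini-Hochberg adjusted over 13905 genes. Every adjusted p of a gene is from this edgeR fit unless another tool is named, and means are given ± SD over 5 libraries. CPM values use TMM-scaled library sizes. Gene positions are from GENCODE M21 (GRCm38) and promoters from RefSeq. The fit was tested on simulated data. Alternatives covered scaling, filters, DESeq2 1.42.0, limma 3.58.1 (voom, and log2(TPM + 1) with the pseudocount of 1), a clock covariate, the replicate number, thresholds and each library left out.

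The comparison, gene families and lists were chosen with earlier results of these data known. By rule, named genes were called, at or above 1 CPM in a group and without overlap, and among the 20 largest changes, 10 smallest p-values or 10 largest CPM shifts each way, or were up to 4 called members of a family. Id3, Got1, Hamp, Psmd4, Psmb10, Psme1, Psme2, H2-T22, Cidec and the genes of neighbour runs lie outside it and were chosen after their values were seen. Some genes the rule names are not reported here. The labels put every library in a group by its title, and samples were not treated as paired in the main fit.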

Additional observations from a re-analysis of the deposited data

Results flagged for a closer look

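In 22 of 254 groups of 5 libraries checked, the highest or lowest library lay further from its neighbour than Dixon's 95% limit of 0.71 of the group's range allows. Chance gives about 1 in 20 such groups where values are normal and groups independent. Most groups here are CPM without a log, of genes that may vary together and some chosen after their values were seen. The rate of 1 in 20 is therefore not a measure of chance for them. Of the 22 flags, 7 concerned Cre 1. It was the highest Cre library for Ntrk2 (2.86 CPM), Socs3 (19.6 CPM), Id1 (35.5 CPM), Id2 (238 CPM), Id3 (110.3 CPM), Tff3 (77.9 CPM) and H2-Q1 (3.18 CPM). Id1, Id2, Id3 and Socs3 are genes induced by extracellular signals, and for all 4 the other Cre libraries also lay above GFP. The calls of these 7 genes held without Cre 1.

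Cre 5 was the highest Cre library for Slc25a22 (965 CPM), Psmd4 (206 CPM), Car2 (4.71 CPM) and Cidec, a lipid droplet protein (289 CPM against at most 20.4 CPM in the other Cre libraries). Cre 3 was the highest for Srd5a1 (80.04 CPM), and Cre 4 the lowest for the clock gene score (-0.19).

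Among controls, GFP 5 was the highest for Aldh1a1 (2909 CPM) and Gsta3 (1769 CPM) and the lowest for Wfdc2 (13.5 CPM). GFP 3 was the highest for Cbs (413 CPM) and the lowest for Pcyt1a (59.9 CPM) and Ocln (6.23 CPM). GFP 2 was the highest for Gldn (0.819 CPM) and the lowest for Psmd12 (56.2 CPM), and GFP 1 the highest for Slc35f1 (0.254 CPM).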

How the results depend on the processing

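None of the 1328 genes called between Cre and GFP changed sign in any alternative run, and counts differed most with the scaling, the libraries sharing the spread and the clock covariate. Library totals alone gave 300 higher and 1656 lower, limma on log2(TPM + 1) 2127 in all (218 and 1909), the GFP and Cre libraries alone 834 (357 and 477), and the clock covariate 174 (55 and 119). An adjusted p under 0.01 left 475 (171 and 304) and a 2-fold minimum 440 (172 and 268). Without the low-count filter 997 genes were called, with DESeq2 1777 and with voom 1238. Leaving out single libraries gave 960 to 1462 calls (373 to 623 higher, 553 to 847 lower). For Cre against Flpo, library totals gave 454 higher and 1810 lower, log2(TPM + 1) 327 and 2443, the clock covariate 23 (6 and 17), an adjusted p under 0.01 881 (364 and 517) and a 2-fold minimum 582 (241 and 341). Of its 1906 calls, 79 had the opposite sign with the clock covariate and 1 with log2(TPM + 1). Its range over left-out libraries was 1454 to 2189 (659 to 1004 higher, 777 to 1185 lower). The cause was not tested.

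The labels do not say whether replicate numbers pair the samples. Same-numbered GFP and Cre libraries correlated between -0.04 and 0.05 in their deviations from group means, which cannot exclude a shared cage or harvest. A fit with the replicate block called 1019 genes (453 higher and 566 lower). Cidec, with a log2 fold change of 0.66 (adjusted p = 0.649), was at -1.43 without Cre 5 (adjusted p = 0.00203) and at 0.95 without Cre 3. Of 124 called genes examined singly, 83 kept their call in every alternative that tested them, of 26 beside the clock covariate. Among these 83, Slc35f1 was tested in 25 of the 26. With the clock covariate 48 of the 124 were called. Depth limits rare transcripts, with 3.82% of genes under 1 CPM called. Genes near 0 CPM in a group carry fold changes that depend on few counts.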

Other observations

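Of 11 tested constant and joining genes of immunoglobulins, which plasma cells express, 4 were called higher in Cre livers (36.4% against 9.55% of all genes called). A log2 fold change above 0 was seen in 10. Limma-voom called none of them and a fit of the GFP and Cre libraries alone called 1. Igkc, one of the 4 (adjusted p = 0.0447), lost its call in 14 of 26 alternatives, among them the fit without Cre 4 (0.0693). Ighg2c was at 1.68, 1.23, 1.22, 0.815 and 1.56 CPM in GFP and 2.93, 58.4, 2.87, 53.4 and 13.3 CPM in Cre. Ighg1 was at 0.190, 0.136, 0.0348, 0.0978 and 0.0648 CPM in GFP and 0.358, 34.4, 1.72, 33.1 and 3.14 CPM in Cre. In both, Cre 2 and Cre 4 stood far above the other Cre libraries, and every Cre library was above every GFP library. The edgeR log2 fold changes were 4.33 (SE 0.83, adjusted p = 0.00514) and 7.05 (SE 1.21, adjusted p = 0.00239), whereas limma-voom called neither (adjusted p = 0.0891 and 0.196). Summed lymphocyte markers ran from 3.31 to 6.19 CPM in GFP and from 5.33 to 9.80 CPM in Cre, and their part in these values was not tested.

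Genes called in the same direction lay next to each other, among genes tested, in 18 runs of at least 3. How many runs the share of genes called would give was not computed. Some runs hold genes of similar sequence, such as Cyp2b10, Cyp2b13 and Cyp2b9. On chromosome 14 from 55575617 to 55591113 (GRCm38) the PA28 genes Psme1 and Psme2 were lower together with Fitm1 and Emc9. On chromosome 2 from 24976033 to 25085716 Pnpla7, Nsmf and Entpd8 were higher. On chromosome 9 from 50521617 to 50581840 Pts, Bco2 and Il18 were lower, and on chromosome 19 from 20410544 to 20727562 C730002L08Rik, Aldh1a1 and Aldh1a7. Reads shared between overlapping or similar neighbours cannot be separated in these counts.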
